A study of Drosophila melanogaster x Drosophila simulans and Drosophila melanogaster and Drosophila simulans with 186 samples.

Results

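The genes described here are 42 of the 1870 scored genes with a CG symbol, and in every hybrid embryo of a cross between D. melanogaster and D. simulans most of their assigned reads came from the D. melanogaster allele. CG symbols are the provisional names that the D. melanogaster annotation gives to predicted genes, and a gene keeps one until it is studied and named. The members were chosen from the authors' table of allele-specific expression (ASE), in which a value of -1 stands for reads of the D. melanogaster allele only, 0 for equal alleles and 1 for reads of the D. simulans allele only. A gene entered when its symbol started with CG, its locus was not on the X chromosome, ASE values were present for 3 or more slices in each of the 5 hybrid embryos, and its mean over slices was -0.2 or lower in all 5. These ASE values chose the genes, so they are given as a description and without a test.

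The embryos were collected at the blastoderm stage labelled cycle 14C, fixed in methanol and cut along the anterior-posterior axis, and each slice was sequenced as a library of its own. There were 3 hybrid embryos of DGRP-340 (D. melanogaster) females and w501 (D. simulans) males, called mel×sim here, 2 hybrid embryos of the reciprocal cross, called sim×mel, and 1 embryo of each of these parental strains, with 186 slices in all. The embryo is the replicate, and for comparisons along the axis the slices of an embryo were divided into an anterior, a middle and a posterior region of equal length. The labels do not say that the embryos of a cross had different parents, so the p-values measure the spread between these embryos.

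In an F1 hybrid both alleles of a gene share a nucleus, and an imbalance between them in transcripts made by the embryo is commonly taken as a sign of differences in cis, that is in sequence linked to the gene. At this stage the embryo still holds much RNA that the mother placed in the egg, which carries maternal alleles alone. A maternal transcript therefore scores toward D. melanogaster in one direction of the cross and toward D. simulans in the other, and the rule takes only genes whose score stayed on the D. melanogaster side in both.

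Allele counts per slice, over the 3005 genes whose coordinates match between the deposited files, ranged from 17 to 3758730. Of the 132 hybrid slices, 126 had ASE values and 118 had levels in the authors' joint table. Of the anterior markers, ems, a head gap gene, was higher in the anterior region, at a log2 difference of 5.70. Of the germ plasm markers, pgc (-3.90) and nos (-2.74) were higher in the posterior region. The anterior marker bcd, at 0.74, and the germ plasm marker gcl, at -0.30, did not pass, with limma adjusted p of 0.237 and 0.141. A background list of 10 zygotic patterning genes had a median ASE of -0.01, between -0.30 for slp1 and 0.07.

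The 42 genes made up 2.25% of the CG genes that met the slice minimum off the X chromosome. Among genes with other symbols, 50 of 2761 met the same threshold, or 1.81%, and 34 CG genes lay at 0.2 or higher in all 5 embryos, or 1.82%. The members were spread over the autosomes, with 14 on 3R, 12 on 3L, 9 on 2L, 6 on 2R and 1, CG40191, on the heterochromatic scaffold 2RHet. In the current annotation 41 of them are protein coding, and the identifier of CG5656 was not matched. Of the 42 genes, 12 have received names since: RabGGTa (CG12007), senju (CG14040), Cox11 (CG31648), Vps13D (CG32113), Tpt (CG33057), side-V (CG34371), Frmd5 (CG5022), Polr3D (CG5147), Uck (CG6364), Hacd1 (CG6746), Usp20-33 (CG8494) and Veneno (CG9684).

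The named members have varied roles. RabGGTa is a subunit of the enzyme that prenylates Rab GTPases, Polr3D a subunit of RNA polymerase III, Cox11 a copper chaperone for the assembly of cytochrome c oxidase, and Tpt a tRNA phosphotransferase. Hacd1 acts in the elongation of fatty acids, Uck is a uridine-cytidine kinase, senju a Golgi sugar transporter, Usp20-33 a deubiquitinase and Vps13D a lipid transfer protein. side-V belongs to the Sidestep family of cell surface receptors, and Veneno is a Tudor domain protein. No role is given here for the other members except where stated.

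The mean ASE of a member over the 5 embryos ran from -0.917 to -0.270, with a median of -0.494. The strongest imbalance was that of CG8066, which is predicted to encode a cystatin-like protease inhibitor and lies on the minus strand of 3R from base 10393333 to 10394569 (release 5). It scored -0.946, -0.941 and -0.904 in the 3 mel×sim embryos and -0.886 and -0.908 in the 2 sim×mel embryos. All 5 embryos lay within 0.06 of each other, so that 95.7% of its assigned transcripts came from the D. melanogaster allele when both directions were weighted equally. The next were CG17187 at -0.787 ± 0.081 (SD, n = 5 embryos here and below), CG10747 at -0.730 ± 0.196, CG12241 at -0.690 ± 0.072 and CG40191 at -0.687 ± 0.355. They were followed by CG8531 at -0.678 ± 0.231, CG42233 at -0.662 ± 0.185, CG34140 at -0.646 ± 0.226, CG5114 at -0.620 ± 0.105 and Tpt at -0.610 ± 0.241. The SD between embryos was smallest among these 10 in CG8066, at 0.026, and largest in CG40191.

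**Figure D1:**
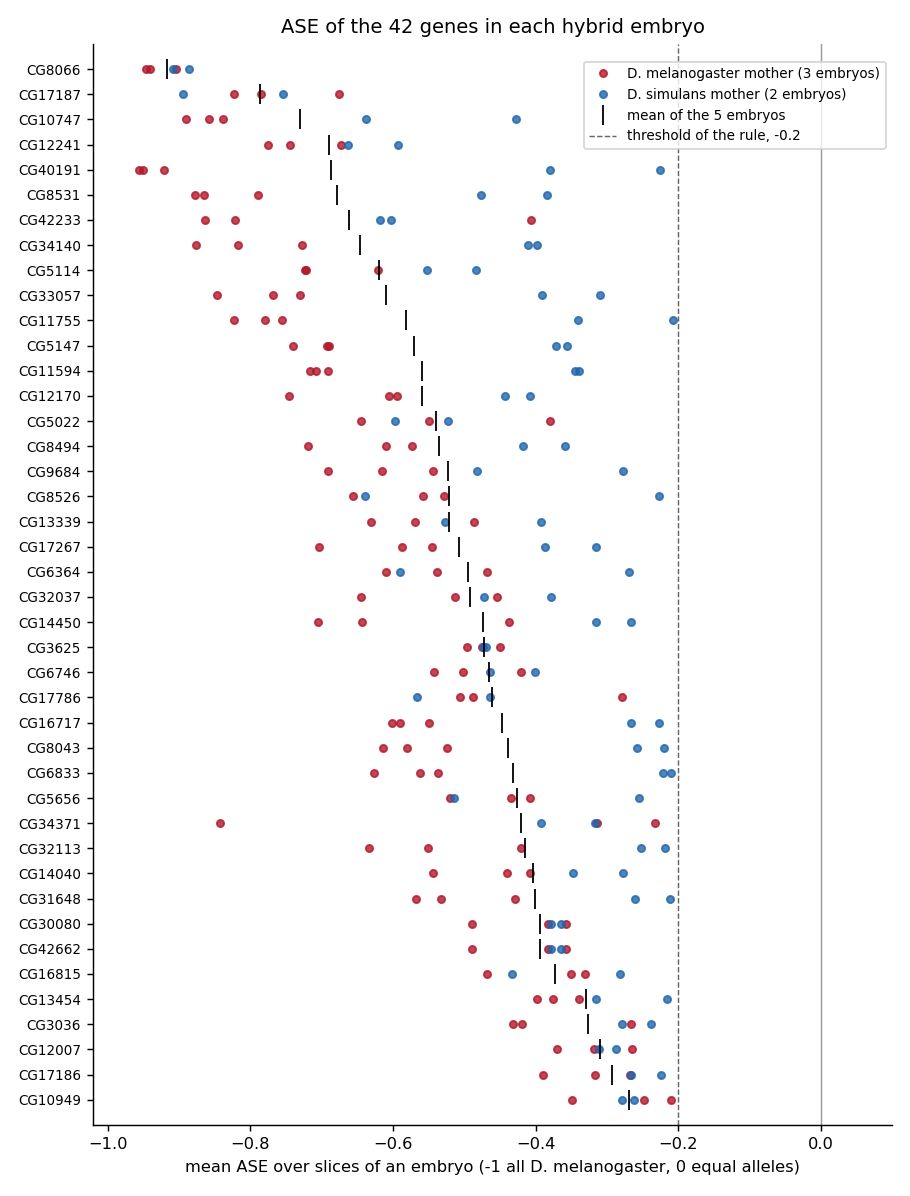
Mean ASE over slices (horizontal axis, no unit, -1 for D. melanogaster reads only) of each of the 42 genes in the 3 hybrid mel×sim embryos and the 2 sim×mel embryos, with the mean of the 5 embryos as a bar and the threshold at -0.2 as a dashed line. The genes are ordered from CG8066 at -0.917 to CG10949 at -0.270, and the embryos of CG40191 fall into 2 sets by their mother while those of CG3625 lie together.

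With the slices of the 5 hybrid embryos pooled, at least 90% of those with a value lay below 0 in 37 of the 42 genes. The rule used the mean of these same slice values, so this is a description only. In single embryos the share could be smaller, as for CG11755 in the first sim×mel embryo, at 70%. The number of slices behind an embryo's mean ranged from 3 to the full set, with a median of 22, and 25 genes had at least 10 slices in every embryo. CG5656 had only 3 to 5 such slices per embryo, all of them anterior, and CG32037 had 4 to 9, so that their means describe the front of the embryo.

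The deposited table holds no value of exactly -1 or 1, with a lowest value of -0.9999. For the 9 members whose allele counts could be used, 71 of 1077 hybrid slices with at least 10 counts had counts of a single species, which was D. melanogaster in 69. Only 4 of these 71 slices have an ASE value, against 848 of the 1006 slices with counts of both species. Slices with D. melanogaster counts only are therefore mostly missing from the means given here.

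Just inside the threshold, judged by the embryo closest to 0, were CG6833 at -0.211, CG10949 at -0.210 and CG11755 at -0.207. Just outside were CG1316 at -0.195, CG5009 at -0.187 and CG10166 at -0.181. CG10166 had a mean over embryos of -0.408, lower than that of CG14040, a member at -0.404, because the embryo closest to 0 and not the mean decides membership.

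The score of a member depended on the mother less than that of most CG genes, as the rule requires. Members had a median ASE of -0.574 in mel×sim embryos and -0.372 in sim×mel embryos, which correspond to 78.7% and 68.6% of transcripts from the D. melanogaster allele. Over all 1870 CG genes the medians were -0.642 and 0.515. The difference between directions, sim×mel minus mel×sim, had a median of 0.131 in members and 1.08 in CG genes.

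Within these limits the members still differed. ASE was higher, that is closer to balance, in sim×mel embryos in 38 and lower in 4. Higher is also the direction of CG genes in general, with their median difference of 1.08, so this count is not particular to the members. The difference was within 0.1 in 14 members, against 5.78% of CG genes, and among these CG3625 scored -0.476, -0.496 and -0.450 in mel×sim embryos and -0.470 and -0.474 in sim×mel embryos. The largest differences were those of CG40191 at 0.640, CG11755 at 0.511, Tpt at 0.431, CG8531 at 0.413 and CG34140 at 0.402. CG40191 scored -0.951, -0.921 and -0.957 against -0.380 and -0.226, so that the share of its D. simulans allele was smaller where that allele came from the father.

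The allele assignment was checked in the embryos of a single species. In the D. simulans embryo 6 members had ASE values in at least 3 slices, and all 6 lay above 0, from 0.884 to 0.975, as did 100% of 2088 genes measured in that way. With a minimum of 1 slice all 27 members with a value lay above 0 in the D. simulans embryo, and all 8 with a value lay below 0 in the D. melanogaster embryo. For the 9 members with usable counts, the share of D. melanogaster counts in the D. simulans embryo was between 0% and 1.2%, with a median of 0.256%, and the share in the D. melanogaster embryo was at least 99.59%.

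Those 9 genes also give the depth behind the score. Their summed counts in a hybrid embryo ranged from 279 to 24933, with a median of 1687, and a SNP can be counted more than once where exons overlap, so no interval was computed from them. Hacd1 had 580 D. melanogaster and 163 D. simulans counts in the first mel×sim embryo, and 504 and 193 in the first sim×mel embryo. CG10747 had 1738 and 44 counts in the former embryo and 430 and 172 in the latter, or 97.5% and 71.4% from D. melanogaster. For the other 33 members the depth behind a value is unknown.

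Members were expressed at lower levels than CG genes in general. Their median level over the hybrid embryos was 8.91 FPKM, against 24.6 FPKM for CG genes with ASE values in every embryo, and 23 of the 42 were under 10 FPKM. The most abundant were CG13454 at 162 ± 29.1 FPKM, CG16815 at 126 ± 40.2 FPKM, CG42662 at 68.6 ± 13.7 FPKM, CG3036 at 39.0 ± 5.75 FPKM and CG8066 at 35.4 ± 13.6 FPKM. CG17267, at 0.543 FPKM, and CG30080, at 0.198 FPKM, stayed under the 1 FPKM needed to enter the tests on level, which leaves 40 members there. Both overlap a far more abundant gene, as described further on.

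The question that the parental embryos address is whether the species whose allele was favoured in hybrids also had the higher level. Of the 41 members with at least 1 FPKM in a parent, 15 were at least 2-fold higher in the D. melanogaster embryo on the scale of FPKM + 1, against 12.8% of all autosomal genes and 11.6% of CG genes. Only 1, side-V, was at least 2-fold higher in the D. simulans embryo, against 18.9% and 17.1%. At any fold 38 of the 41 were higher in D. melanogaster, against 42% of all genes and 41.3% of CG genes. With 1 embryo per species there is no replicate check and no test of these differences.

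The median log2 ratio of D. simulans over D. melanogaster was -0.77 in members and 0.16 in all genes. CG8066 had 67.1 FPKM in the D. melanogaster embryo and 1.26 FPKM in the D. simulans embryo, a log2 ratio of -4.91. CG10747 had 12.99 and 1.08 FPKM, CG40191 12.4 and 2.04 FPKM, CG17187 15.2 and 3.13 FPKM, and CG11755 18.2 and 4.53 FPKM, with log2 ratios of -2.75, -2.15, -1.97 and -1.79. These 5 genes with the widest parental gap are also among the 11 members of lowest mean ASE.

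At the other end, side-V had 0.801 FPKM in the D. melanogaster and 2.78 FPKM in the D. simulans embryo, a log2 ratio of 1.07, although its ASE in hybrids lay on the D. melanogaster side. CG3625 had 16.2 and 20.2 FPKM (0.30) and Uck 14.5 and 16.01 FPKM (0.13). RabGGTa (-0.07) and CG10949 (-0.12) were nearly equal in the parents. Relative to its mean level, side-V was also the most variable of these in hybrids. It had 0.517, 1.42 and 0.4998 FPKM in mel×sim embryos and 4.11 and 1.38 FPKM in sim×mel embryos.

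The parental levels were put on the scale of ASE as (sim - mel)/(sim + mel). A hybrid would have this score if all RNA were made by the embryo and each allele kept the output it has in its own species. Parental FPKM also includes RNA placed by the mother, to which this expectation does not apply. The maternal part of each member's level was not measured. This expected score had a median of -0.311 in members, against a median hybrid ASE, with both directions weighted equally, of -0.482. It was within 0.2 of the hybrid ASE in 25 members, and it lay closer to D. simulans than the hybrid ASE in 34 and closer to D. melanogaster in 8. Across members the 2 scores had a Pearson r of 0.61 and a Spearman rho of 0.64, against an r of 0.60 across CG genes. These are descriptions over genes, which share the same 7 embryos and a threshold on 1 of the scores.

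**Figure D2:**
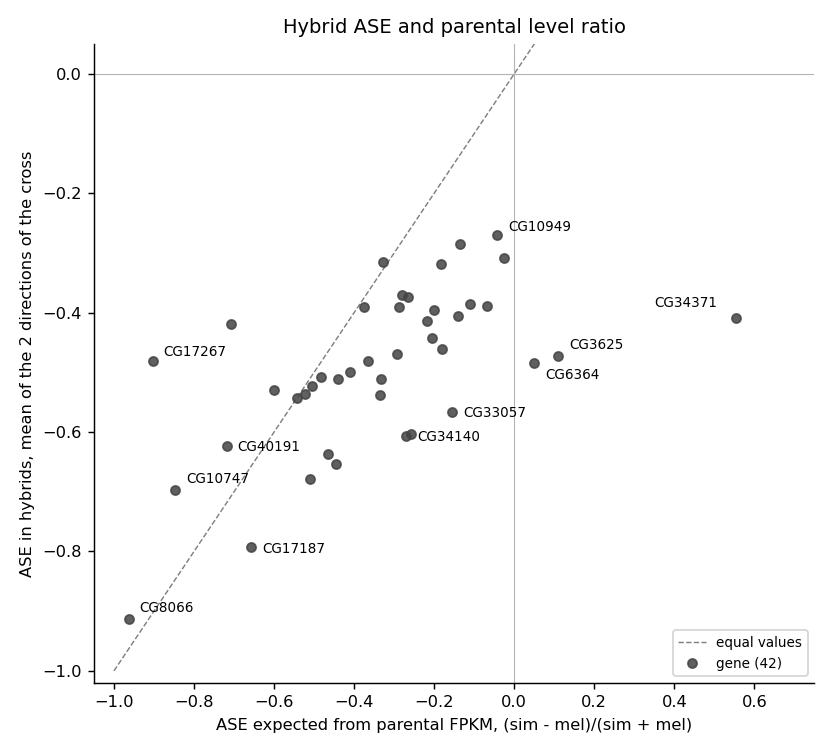
ASE in hybrids, as the mean of both directions of the cross (vertical axis, no unit), against the ASE expected from the FPKM of the parental embryos (horizontal axis, no unit) for the 42 genes, with equality as a dashed line. Most genes lie below the line, side-V (CG34371), CG3625 and Uck (CG6364) lie to the right of 0, and CG8066 lies at -0.963 expected and -0.914 in hybrids.

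The level of all 5 hybrid embryos lay between those of the parents in 9 of the 41 members, against 11.8% of all genes. These were CG3036, CG10747, CG11594, CG5656, CG13339, CG11755, CG8526, CG8066 and CG17267. For CG8066 the hybrids had 51.1, 45.0 and 37.8 FPKM in mel×sim embryos and 19.3 and 23.7 FPKM in sim×mel embryos, between 67.1 and 1.26 FPKM in the parents.

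The level of most members did not pass the test between the directions of the cross. By limma on log2(FPKM + 1) over the 5 hybrid embryos, with Benjamini-Hochberg adjustment over 5583 genes, 2 of 40 members passed an adjusted p of 0.05, while 19.6% of all genes tested did. Both were lower in sim×mel embryos, as were 8.96% of all genes. At an unadjusted p under 0.05 there were 9 members, against 31.5% of genes. The median difference over all genes was 0.14 rather than 0, and with levels centred on the median of each embryo the share of calls that were higher in sim×mel embryos went from 54.4% to 43.0%, while the same 2 members were called.

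CG40191 fell from 18.3, 9.61 and 14.1 FPKM in mel×sim embryos to 2.80 and 4.51 FPKM in sim×mel embryos, with no overlap between the groups. The log2 difference was -1.67 ± 0.36 (SE), with an adjusted p of 0.00436. CG8066 fell by 1.02 on the log2 scale, with an SE of 0.28 and an adjusted p of 0.0222, and its groups did not overlap either. CG8066 lost its call without the first mel×sim embryo (-0.92, adjusted p 0.0883) or without either sim×mel embryo (-0.88 and -1.16, adjusted p 0.193 and 0.0833), and CG40191 lost it without the first sim×mel embryo (-1.40, adjusted p 0.0992). The first mel×sim and the first sim×mel embryo share the earliest library batch, except for a library made again later, and in these embryos CG40191 had 18.3 and 2.80 FPKM and CG8066 51.1 and 19.3 FPKM.

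In CG40191 the total and the share of the D. melanogaster allele were both lower in sim×mel embryos, the share at 65.14% against 97.15% in mel×sim embryos. In CG8066 the total fell and ASE stayed between -0.946 and -0.886. The 3 members of next lowest p were higher in sim×mel embryos without passing: side-V at 0.98 ± 0.36, CG42233 at 0.82 ± 0.32 and CG8043 at 0.85 ± 0.34, with adjusted p of 0.0744, 0.0914 and 0.0997.

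The next question was where along the axis these genes were expressed. The anterior and posterior regions were compared within each hybrid embryo, which makes the embryo its own control. In slices of tissue more expressing nuclei and more RNA per nucleus cannot be told apart. By limma 9 of 40 members passed an adjusted p of 0.05, against 16.9% of all genes, of which 6 were higher in the anterior region (9.35% of all genes) and 3 were lower (7.54%). In all 9 the 5 embryos had the same sign.

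The steepest was CG5656, on 3L from base 21435327 to 21437919, whose RNA was nearly confined to the anterior. It had 10.6, 9.35 and 7.65 FPKM in the anterior region in mel×sim embryos and 4.25 and 6.15 FPKM in sim×mel embryos, and between 0.0284 and 0.159 FPKM in the posterior region. The log2 difference was 2.93 ± 0.17 (SE), with an adjusted p of 2.93e-06. CG32037 rose toward the anterior by 2.08 ± 0.11, from 0.0765 to 0.664 FPKM in the posterior region to between 3.15 and 6.95 FPKM in the anterior region, with an adjusted p of 1.94e-06. Both genes had the same direction in the D. melanogaster embryo (3.63 and 2.91) and in the D. simulans embryo (1.62 and 2.19).

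CG17786 (1.06 ± 0.13), side-V (0.91 ± 0.11), CG42662 (0.85 ± 0.10) and Cox11 (0.42 ± 0.10) were also higher in the anterior region, with adjusted p of 0.000397, 0.000498, 0.000442 and 0.0178. CG17786 lies wholly inside twin, which encodes a deadenylase, on the same strand, and Cox11 lies inside Cap-D3, a condensin subunit, so that reads of their shared sequence cannot be assigned to 1 gene from these files. Cox11 lost its call without the second mel×sim embryo or the first sim×mel embryo (0.35 and 0.40, adjusted p 0.0605 and 0.0513).

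CG3036 and CG8066 were higher in the posterior. CG3036, which resembles anion transporters of the major facilitator family, had between 14.7 and 20.3 FPKM in the anterior region of the hybrids and between 47.6 and 82.9 FPKM in the posterior region, a log2 difference of -1.80 ± 0.11 with an adjusted p of 3.42e-06. CG8066 had between 8.73 and 24.4 FPKM in the anterior region and between 23.5 and 60.9 FPKM in the posterior region, a difference of -1.20 ± 0.085 with an adjusted p of 1.04e-05. CG3625 differed by -0.36 ± 0.080 with an adjusted p of 0.0145, and lost its call without the first or the third mel×sim embryo (-0.31 and -0.33, adjusted p 0.0561 and 0.0519).

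When the mean of both ends was compared with the middle region, 8 of 40 members passed by limma, against 13.5% of all genes. Of these, 5 were higher in the mean of the ends (10% of all genes) and 3 were higher in the middle (3.44%). CG16815 had 160, 111 and 196 FPKM in the middle region in mel×sim embryos and 257 and 248 FPKM in sim×mel embryos, above both ends in every embryo, with a log2 difference of -1.11 ± 0.080 and an adjusted p of 4.41e-06. CG8066 (-0.75 ± 0.059) and CG3625 (-0.65 ± 0.073) were likewise higher in the middle, with adjusted p of 8.68e-06 and 0.000129. In the parental embryos CG16815 had the same direction, at -0.95 in D. melanogaster and -1.89 in D. simulans.

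In the mean of both ends, CG5656 was higher by 1.21 ± 0.13 and side-V by 0.77 ± 0.12, with limma adjusted p of 0.000109 and 0.00188. For CG5656 this came from the anterior region alone. Its posterior level, 0.0284 to 0.159 FPKM, was under that of the middle region, 0.107 to 0.471 FPKM, in every hybrid embryo. Smaller differences were those of Hacd1 at 0.40 ± 0.077, CG12170 at 0.30 ± 0.075 and Uck at 0.26 ± 0.074, with adjusted p of 0.00544, 0.0239 and 0.0382, where the median of all genes was 0.06. CG12170 and Uck each lost the call without 4 of the 5 embryos taken singly, with adjusted p up to 0.0849 and 0.132, and kept it only without the second sim×mel embryo (CG12170) or the second mel×sim embryo (Uck).

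**Figure D3:**
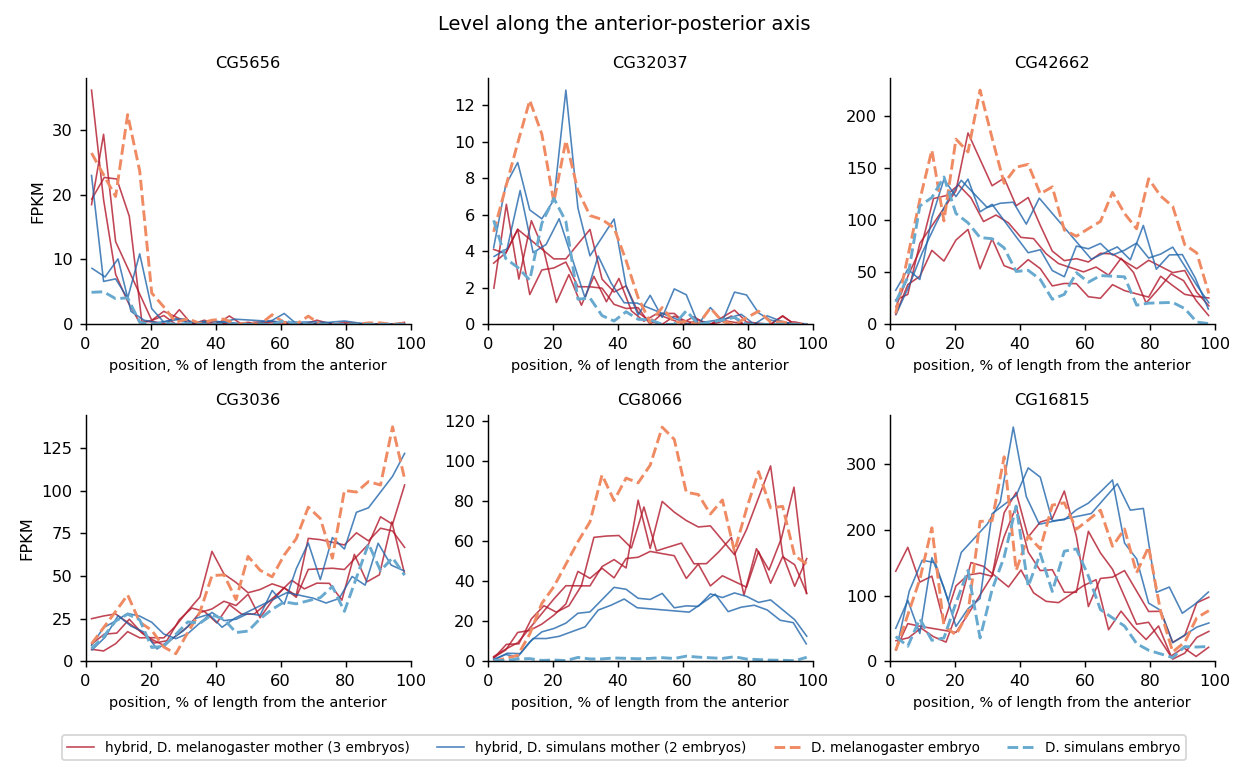
Level in FPKM (vertical axes, linear) against position in % of length from the anterior end for 6 members, with a line for each of the 5 hybrid embryos and dashed lines for the 2 parental embryos. CG5656 and CG32037 are highest in the anterior, CG3036 in the posterior and CG16815 in the middle, and the D. simulans embryo is near 0 for CG8066.

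A change of ASE along the axis was called in few members. The rule used the mean over slices and not its change, so this comparison could be tested. Between the anterior and posterior regions 2 of 28 members passed by limma, against 0.938% of 4159 genes, and both were higher in the anterior region, as were 0.553% of genes, while 0.385% of genes were lower there. The 2 are CG42662 and CG30080, which have the same locus on the minus strand of 2R, from base 11586231 to 11589201, and identical ASE values in every slice, so that they are 1 measurement. CG42662 had 68.6 FPKM and CG30080 0.198 FPKM.

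CG42662 scored -0.401, -0.188 and -0.188 in the anterior region in mel×sim embryos and -0.307 and -0.266 in sim×mel embryos. In the posterior region it scored -0.653, -0.522 and -0.655, and -0.590 and -0.499. The posterior was lower in 5 of 5 embryos, by 0.233 to 0.468, and the mean difference was 0.31 ± 0.038 (SE) with an adjusted p of 0.0369. The call was lost when any 1 embryo was left out, with differences of 0.28 to 0.33 and adjusted p of 0.0526 to 0.152, and with end regions of 1 in 4 slices in place of 1 in 3 (0.31, adjusted p 0.0616).

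The parental embryos differed in the same way along the axis for this gene. CG42662 had 143 FPKM in the anterior region of the D. melanogaster embryo and 90.2 FPKM in that of the D. simulans embryo, and 97.2 and 17.6 FPKM in the posterior region. The ASE expected from these levels was -0.226 in the anterior and -0.694 in the posterior region, beside hybrid means of -0.270 ± 0.090 and -0.584 ± 0.072. In the outermost 10% of the length at the anterior end, embryo means of CG42662 were -0.850 to -0.392, beside -0.859 to -0.347 in the outermost 10% at the posterior end. These ends were picked after the slices had been seen.

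CG16815 and CG13454 had the next smallest p without passing, and moved in opposite directions. CG16815 scored -0.255 ± 0.105 in the anterior and -0.4999 ± 0.084 in the posterior region, a difference of 0.24 ± 0.047 in the same direction in 5 of 5 embryos, with an adjusted p of 0.111 by limma. Its posterior level was 105 FPKM in the D. melanogaster and 24.3 FPKM in the D. simulans embryo, against 118 and 62.8 FPKM in the anterior. In the outermost 10% of the length at the anterior end 6 of 12 slices lay above 0, with embryo means from -0.539 to 0.366, a wider spread than that over the whole anterior region, while 0 of 12 slices did at the posterior end.

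CG13454 scored -0.399 ± 0.018 in the anterior region and -0.205 ± 0.113 in the posterior region, a difference of -0.19 ± 0.047 in 5 of 5 embryos, with an adjusted p of 0.187. Its level was 195 FPKM in the D. melanogaster and 82.9 FPKM in the D. simulans embryo in the anterior region, and 188 and 207 FPKM in the posterior region. In the outermost 10% of the length at the posterior end 7 of 14 slices lay above 0, with embryo means of -0.113 to 0.188, while 0 of 13 slices did at the anterior end. At the posterior tip this most abundant member thus had embryos on both sides of balance.

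The change in ASE from anterior to posterior was also set beside the change expected from the parental levels, as a description across genes that share the same embryos. Over all 28 members tested the Pearson r was 0.009 and the Spearman rho 0.04, and the sign was the same in 11. CG30080 decides the Pearson value, since its expected change comes from levels under 1 FPKM and its ASE is that of CG42662. Without it, a choice made after the values were seen, the other 27 members had an r of 0.50 and a rho of 0.15, with the same sign in 11. The likeness described for CG42662, CG16815 and CG13454 belongs to genes picked for their small p. Between both ends and the middle, 0 of 26 members passed by limma, against 0.622% of 4021 genes (0.174% higher and 0.448% lower at the ends), and 6 had an unadjusted p under 0.05, against 9.28% of genes.

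**Figure D4:**
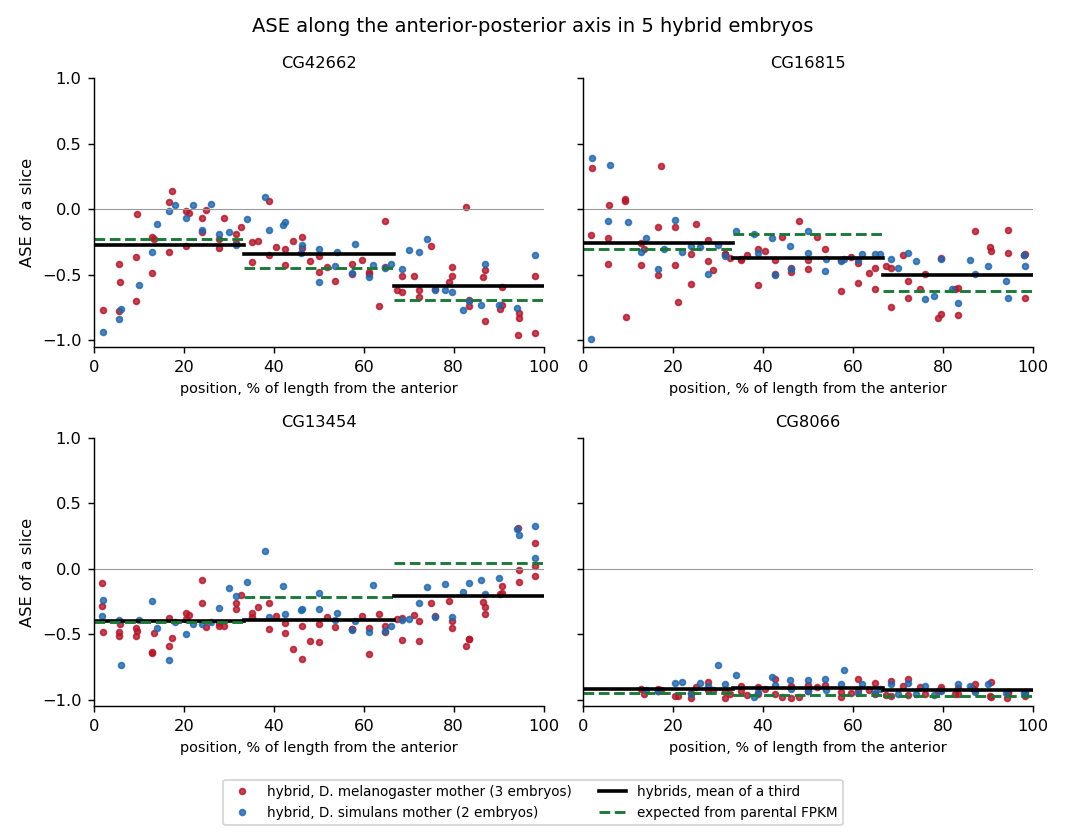
ASE of single slices (vertical axes, no unit) against position in % of length from the anterior end in the 5 hybrid embryos for 4 members, with the hybrid mean of each region as a black line and the value expected from parental FPKM as a dashed line. CG42662 and CG16815 fall from anterior to posterior (-0.270 to -0.584 and -0.255 to -0.4999), CG13454 rises (-0.399 to -0.205), and CG8066 stays between -0.911 and -0.925.

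The genes next to the members were examined to see whether the imbalance extended beyond a single gene. For each member the nearest gene on either side that had ASE values in every hybrid embryo was taken, which gave 84 neighbours, 6 of them members themselves. Of these 84, 9 were at -0.2 or lower in all 5 embryos, or 10.7%, against 1.99% of the 9242 neighbours of all genes with ASE. The 6 members are among these 9 and meet the threshold by the rule that chose them, so the 2 shares are not alike. This is a count over places in the genome and has no test.

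Most of these 9 overlap the member. Of 19 overlapping neighbours 7 were at -0.2 or lower in all embryos, or 36.8%, against 1.83%. Of the 65 neighbours that do not overlap 2 were, or 3.08%, against 2.02%. These 2 are CG8531 and Usp20-33, both members, each the other's neighbour on 2R at a distance of 12837 bases. Usp20-33 scored -0.536 ± 0.146 and CG8531 -0.678 ± 0.231. Of the 78 neighbours that are no members 3 met the threshold, or 3.85%, against 1.09%. They are Mul1, mkg-p and Mkp, and all 3 overlap their member. For mkg-p and Mkp the overlap is 100% of the member's locus on the same strand, so these are not separate measurements.

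Several of these pairs share their reads. Tpt has the same locus as mkg-p, and their ASE, with both directions weighted equally, was -0.566 for each. CG34140 has the same locus as Mkp, a MAP kinase phosphatase, with -0.606 and -0.603. CG11755 and CG8043 share 1319 bases on the same strand, all of CG8043, and scored -0.530 and -0.406. Values within each of these pairs are not separate measurements.

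Other overlapping genes were alike or differed. Over all 20 overlapping pairs with ASE for the second gene, those with shared reads included, the latter was below -0.2 in 8 and above 0 in 6. Scores in this paragraph weight both directions of the cross equally, unless a direction is named. The 8 hold mkg-p and Mkp, and the pairs CG42662 with CG30080 and CG11755 with CG8043, each counted from both sides. Apart from these, only Mul1 and cdc2c were below -0.2. CG11594 overlaps Mul1, a mitochondrial ubiquitin ligase, over 85 bases, and they scored nearly the same, at -0.524 and -0.506. In contrast, CG42233 overlaps Acf1, a chromatin remodelling subunit, over 166 bases and scored -0.654 where Acf1 scored 0.155. Cox11 scored -0.373 inside Cap-D3 at 0.298, and CG17786 -0.470 inside twin at 0.041. Both of these partners changed sign with the mother. Cap-D3 scored -0.367, -0.108 and -0.249 in mel×sim embryos and 0.858 and 0.819 in sim×mel embryos. For twin the scores were -0.264, -0.286 and -0.602, and 0.543 and 0.388.

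In total 24 members overlap another gene, 18 of them a gene on the opposite strand, and 16 a gene of higher FPKM. The library method does not mark strand, so reads of overlapping stretches cannot be told apart, and values of CG17267, which shares 61.4% of its locus with cdc2c (36.2 FPKM, ASE -0.305), are uncertain for this reason. The other 18 members overlap no gene. In a subset chosen after the values were seen, all 18 of these were higher in the D. melanogaster embryo, against 42% of all autosomal genes. At least 2-fold higher were 9 of them, against 12.8%. Their median log2 ratio was -0.92, against 0.16.

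CG8066 is one of these 18. Its neighbour Cys, which encodes a cystatin-like protein, lies 255 bases away on the same strand and had 276 FPKM and an ASE of -0.228, with both directions weighted equally. The neighbour on the other side, CG8461, lies 53973 bases away and scored -0.056 on this measure. That value averages opposite scores, -0.826, -0.764 and -0.851 in mel×sim embryos and 0.7004 and 0.7005 in sim×mel embryos. The ASE of CG8066, at -0.914 on the same measure, was lower than that of Cys and CG8461, which is a larger imbalance toward D. melanogaster.

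**Figure D5:**
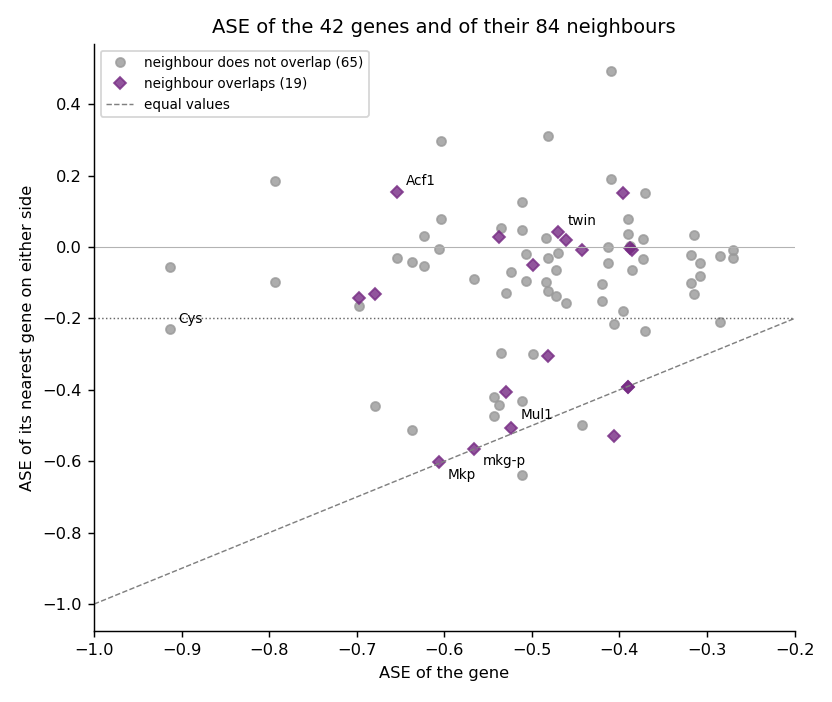
ASE of the nearest gene on either side (vertical axis, no unit) against ASE of the member (horizontal axis, no unit), both as the mean of the 2 directions of the cross, for 84 neighbours of the 42 genes, with 19 overlapping neighbours as diamonds and 65 others as circles. Overlapping neighbours include pairs on the line of equality such as Mkp and mkg-p, and the others are spread around a median of -0.056.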

How the data were processed

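The labels gave the embryo and position of each slice. The authors mapped reads with STAR 2.4.2a to a D. melanogaster genome (FlyBase release 5) in which SNPs between the species were masked, and both FPKM and ASE rest on this mapping. The paper states that reads were filtered out for ASE if they mapped elsewhere once their SNP alleles were exchanged. It also warns that gene models from D. melanogaster may leave D. simulans-biased genes undercounted. Any remaining loss of D. simulans reads in mapping was not tested here. The deposited FPKM values come from Cufflinks 2.2.1, normalized for gene length and mapped fragments. ASE was deposited as a score by gene and slice, within -1 and 1 and missing for many slices, namely the difference of D. simulans and D. melanogaster reads over their sum. The deposited allele counts per gene and species are not normalized, and carry gene coordinates of release 6, so use was limited to 3005 genes whose coordinates equal those of the FPKM loci. The joint tables have 27 further columns that were not used. Of 7432 ASE genes 7373 matched a locus.

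Levels are means over slices of an embryo. Tests used limma 3.58.1 in R 4.3.3 on log2(FPKM + 1), with a minimum mean of 1 FPKM, or on ASE, with at least 2 slices per region in every embryo, and Benjamini-Hochberg adjustment over all genes tested. The 3 regions were cut by slice number. Self-tests ran on simulated data. Python 3.11.15, NumPy 2.4.6, pandas 2.3.3 and matplotlib 3.10.9 were used. Alternatives covered pseudocounts, filters, slices used, regions, thresholds, embryos left out and a block for replicate number.

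The members and lists were chosen with earlier results of these data known. Named members are those of lowest ASE, highest FPKM, widest parental ratio, smallest p in each test, nearest the threshold, next to another member, or with the largest difference between directions. Current symbols come from Ensembl release 115. No sequences were used. The sex of the embryos was neither inferred nor used.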

Additional observations from a re-analysis of the deposited data

Results flagged for a closer look

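In 3 members the mean ASE of 1 hybrid embryo stood apart from the other 4, with a gap to the nearest embryo above 0.71 of the range of all 5. side-V (CG34371) was at -0.843 in the third mel×sim embryo, where only 5 slices had a value, and between -0.392 and -0.233 in the others. CG42662 and CG30080, which share their values, were at -0.489 in the first mel×sim embryo and between -0.382 and -0.358 in the others. Chance flags about 1 in 20 such groups, and 61 sets of 5 embryos were examined.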

How the results depend on the processing

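The number of genes that met the rule went from 42 to 25 with at least 10 slices per embryo, 81 at a threshold of -0.1, 21 at -0.3 and 18 among genes that overlap no other. Without 1 embryo it was 42 to 65, the latter without the first sim×mel embryo. Of 41 members, 15 were at least 2-fold higher in the D. melanogaster embryo, against 12.8% of all autosomal genes. The members counted were 3 with a pseudocount of 10 FPKM, 26 at 1.5-fold and 3 at 4-fold. Among the 18 that overlap no other gene (a subset added after the data were seen) there were 9. For alternative settings here and below no share over all genes is given, so these counts describe the members only. Calls by direction of the cross went from 2 members to 0 without a filter on low values, and to between 0 and 3 without 1 embryo, with 0 left without the first sim×mel and 1 without the first mel×sim embryo. Without a sim×mel embryo the remaining one is assumed to vary like the mel×sim embryos. With a replicate block they were 3, the third being CG16815. Same-numbered embryos deviated together with correlations of 0.083 and 0.1 over 5583 genes, so the numbers were not taken to pair the embryos.

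Calls of level between anterior and posterior were 8 to 9 without 1 embryo, against 9. Those between ends and middle were 5 without a filter on low values and 6 to 7 without 1 embryo, against 8. The ASE calls between anterior and posterior, 2 members of 1 locus, were 0 with end regions of 1 in 4 slices and 0 to 0 without any 1 embryo, and those between ends and middle were 0 throughout. Members with higher ASE in sim×mel embryos were 37 to 38 without 1 embryo. Neighbours at -0.2 or lower were 2 of 65 without overlap, 3 of 78 that are no members, and 9 to 10 without 1 embryo, against 9 of 84. In the D. simulans embryo 27 of 27 members lay above 0 with at least 1 slice, and none had 10 slices. Over 21 estimates of called members and 208 alternatives, 171 kept their call, 37 lost it and 0 reversed. The depth behind ASE is known for 9 members only, and each parental strain had 1 embryo.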
